A study of Mus musculus with 12 samples.

Results

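Of the 12 mouse tumours profiled, the 8 that had been treated with drugs were divided into 2 classes, chosen by their measured level of Aurkb, the gene of the mitotic kinase Aurora B. A treated tumour with Aurkb at 40 CPM or more (its count scaled by the total counted reads of the library, the usual depth-adjusted unit) was placed in the Aurkb-high class and the others in the Aurkb-low class. The 3 Aurkb-high tumours were regressing 2 at 70.6 CPM, terminal combination 3 at 67.4 CPM and regressing 3 at 51.0 CPM. The 5 Aurkb-low tumours were terminal combination 1 at 26.6 CPM, regressing 4 at 22.3 CPM, regressing 1 at 17.9 CPM, terminal combination 2 at 15.1 CPM and terminal combination 4 at 9.76 CPM. Regressing 3 was the nearest tumour above the threshold and terminal combination 1 the nearest below it. The classes were made from a transcript measured in the same libraries, so Aurkb and the other cell cycle genes are described without a test. The p-values for all other genes describe how these 8 libraries differ, not a treatment that was assigned to them.

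The tumours were malignant peripheral nerve sheath tumours, sarcomas of the nerve sheath, raised in C57B/6 mice labelled WT. An adenovirus carrying Cas9 was aimed at 2 tumour suppressor genes, Nf1 and Cdkn2a (written Cdk2na in the labels). Treated mice received 100 mg/kg palbociclib, an inhibitor of CDK4 and CDK6, together with 1 mg/kg mirdametinib, an inhibitor of MEK, every day by oral gavage. The 4 tumours called regressing were taken during regression, the 4 called terminal combination at the terminal time point, and the 4 vehicle tumours, from mice given no drug, also at the terminal time point. Replicate numbers follow the order of deposit and pair no tumours. The Aurkb-high class held 2 of 3 tumours harvested during regression and the Aurkb-low class 2 of 5 (Fisher's exact test, two-sided, p = 1.0). Vehicle tumours 1 to 4 had Aurkb at 41.9, 36.7, 81.2 and 84.9 CPM, and vehicle 2 would have fallen below the threshold. The labels give no sex, age or animal number, so the tests measure the spread between tumours whose origin in separate mice is not stated.

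Libraries held 13194699 to 22639625 counted reads. From here on CPM are scaled by the trimmed mean of M-values (TMM), which gave the same classes. Nf1 lay between 10.2 and 23.8 CPM and Cdkn2a between 5.08 and 393 CPM across the 12 tumours. Transcript levels do not report a Cas9 edit, so these values do not check the genotype. The Schwann lineage marker Sox10 was at 0 to 2.10 CPM in the treated tumours, near the limit of detection (a count of 0 allows up to 0.133 to 0.227 CPM, depending on the library). S100b was at 1.69 to 10.4 CPM and Ngfr at 0.988 to 14.5 CPM. Ncam1, at 26.6 to 103 CPM, and the intermediate filament gene Nes, at 54.4 to 589 CPM, were well expressed.

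Cells leave G1 when cyclin D with CDK4 or CDK6, and then cyclin E with CDK2, phosphorylate the RB protein and release E2F factors, which switch on the genes of DNA replication. The genes of mitosis, Aurkb among them, are switched on later by the MuvB complex with B-MYB and FOXM1, and are held silent in resting cells by the DREAM complex, which holds MuvB with p130 and binds the promoter element called the CHR. MEK feeds into this pathway by raising cyclin D through ERK. In bulk tissue, fewer cycling cells and less of a transcript per cell cannot be told apart.

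The cell cycle genes stood higher with Aurkb, which the choice of classes makes likely, and they show what the classes contain. Of 448 tested members of 2 cell cycle lists, 410 were higher in the Aurkb-high class, with a median log2 difference of 0.67, and for 185 (41.3%) every Aurkb-high tumour stood above every Aurkb-low tumour. The topoisomerase gene Top2a was at 271, 313 and 193 CPM in regressing 2, terminal combination 3 and regressing 3, against 150, 87.7, 97.9, 93.8 and 48.0 CPM in the Aurkb-low tumours taken from the highest Aurkb to the lowest. The cyclin B1 gene Ccnb1 was at 79.5, 78.2 and 58.6 CPM against 47.7, 22.4, 26.4, 34.3 and 17.0 CPM in the same order. The classes did not overlap for either gene. The proliferation marker Mki67 did overlap, at 63.7, 76.4 and 45 CPM against 58.3, 39.1, 28.7, 33.9 and 24.9 CPM. Every Aurkb-low tumour thus still held transcripts of the mitotic genes, and the working name arrested describes them less well than the gene that defined them.

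The E2F and S phase genes followed the same split. The cyclin E genes did not overlap between classes: Ccne1 was at 47.8, 35.8 and 21.3 CPM against 13.95, 7.91, 11.9, 9.46 and 6.78 CPM, and Ccne2 at 13.2 ± 6.42 against 4.86 ± 1.07 CPM (mean ± SD, n = 3 and 5). Neither did Rrm2, a subunit of ribonucleotide reductase (72.7 ± 28 against 28.6 ± 8.78 CPM), or Mybl2, which encodes B-MYB (20.6 ± 10.2 against 8.14 ± 2.69 CPM). Foxm1 and the replication licensing gene Mcm2 overlapped, because terminal combination 1 stood with the Aurkb-high tumours, at 54.8 CPM for Foxm1 and 111 CPM for Mcm2. E2f1 itself (47.2 ± 6.68 against 42.9 ± 11.2 CPM) and Cdkn2c, the gene of the CDK4/6 inhibitor p18 (31.5 ± 7.62 against 34.5 ± 10.3 CPM), lay in the same range in both classes.

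Terminal combination 1 stood apart within the Aurkb-low class. Its Cdk1, at 156 CPM, was above the 3 Aurkb-high tumours, at 123, 91.1 and 91.1 CPM, while the other 4 Aurkb-low tumours lay between 29.7 and 60.7 CPM. Its Ccna2, at 122 CPM, and its Cdk2, at 52.7 CPM, were likewise the highest of the 8 treated tumours. The mean log2 CPM of 413 cell cycle genes outside chromosome 11, where Aurkb lies, was 4.45 in this tumour, next to 4.48 in regressing 3, the lowest Aurkb-high tumour, and against 3.70 to 4.08 in the other 4 Aurkb-low tumours. Leaving it out raised the genes whose classes do not overlap to 7.69% of all tested genes outside the cell cycle (higher) and 8.62% (lower), and list counts given below without this tumour are to be read against those shares. With terminal combination 1 left out, every Aurkb-low tumour and no Aurkb-high tumour expressed genes of the Y chromosome. Sex and class therefore cannot be told apart in those counts.

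**Figure D1:**
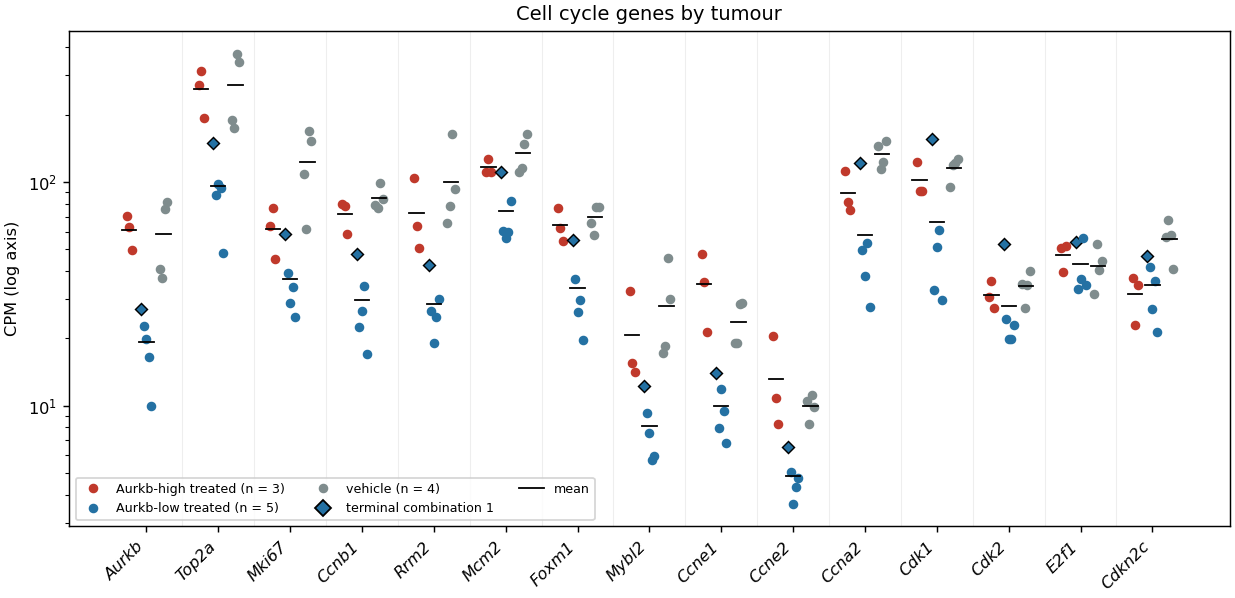
CPM (log axis) of 15 cell cycle genes in each tumour, in red for the 3 Aurkb-high, blue for the 5 Aurkb-low and grey for the 4 vehicle tumours, with a black line at the mean. The diamond marks terminal combination 1, which sits among or above the red points for Ccna2, Cdk1, Cdk2, Mcm2 and Foxm1 and below them for Aurkb, Top2a and Ccne1.

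The promoter of Cdk1 and those of 2 genes outside the lists that tracked the classes are shown for the CHR element, which ties mitotic genes together. Promoters of the other genes that tracked the classes are not shown. Each run covers 100 bases before the annotated start and 28 after it, from RefSeq on GRCm38.p6, with capitals marking TTTGAA or its variant TTCGAA on either strand. Cdk1 is at chr10:69352885-69353012, Fignl1 at chr11:11808935-11809062 and Prr11 at chr11:87108687-87108814, each on the minus strand.
Cdk1: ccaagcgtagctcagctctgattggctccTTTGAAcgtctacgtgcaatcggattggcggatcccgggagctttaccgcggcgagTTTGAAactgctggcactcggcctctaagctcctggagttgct
Prr11: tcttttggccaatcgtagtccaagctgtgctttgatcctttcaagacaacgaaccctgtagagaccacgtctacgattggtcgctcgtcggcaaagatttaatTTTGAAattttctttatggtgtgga
Fignl1: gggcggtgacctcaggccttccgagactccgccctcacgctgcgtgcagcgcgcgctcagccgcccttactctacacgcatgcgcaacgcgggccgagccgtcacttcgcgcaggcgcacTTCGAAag

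In windows of this length, searched on both strands, TTTGAA was present in 22.3% of the 364 cell cycle promoters matched, in 4.72% of 10838 promoters of tested genes outside those lists and in 8.23% of all 27025 promoters. CCAAT, the NF-Y motif, was present in 51.4%, 26.8% and 24.3% of the same sets. Outside the cell cycle lists, TTTGAA was present in 4.79% of the promoters of genes that stood higher in every Aurkb-high tumour and in 4.73% of those that stood lower, and CCAAT in 33.0% and 29.1%. The variant TTCGAA, the only form marked in Fignl1, was present in 0.766% and 0.995% of the same promoters. It was present in 0.747% of promoters of all tested genes outside the lists and in 2.47% of cell cycle promoters. A match describes the letters and is not a bound site.

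Outside the cell cycle, 15180 genes were tested between the classes, and none passed an adjusted p of 0.05 by edgeR's quasi-likelihood test or by limma voom. At an unadjusted p under 0.05 edgeR had 1604 genes (10.6%), 793 higher (5.22%) and 811 lower (5.34%) in the Aurkb-high class, and DESeq2 called 244 (1.61%), 133 higher (0.876%) and 111 lower (0.731%). Every Aurkb-high tumour stood above every Aurkb-low tumour for 687 genes (4.53%) and below for 545 (3.59%). The median log2 difference was -0.07, and 43.4% of the genes were higher. Without TMM, on library totals, every log2 difference shifts up by 0.12, and the part of the non-overlapping genes that is higher goes from 55.8% to 79.9%. An interaction of class and harvest time was fitted, but terminal combination 3 was the only terminal tumour in the Aurkb-high class. That fit therefore cannot decide whether the class difference changed with harvest time.

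The 10 genes of lowest p that stood higher in the Aurkb-high class had edgeR adjusted p-values from 0.184 up, and all 10 were among the DESeq2 calls. The first was Fignl1 (ENSMUSG00000035455, chr11:11787431-11808962, GRCm38), an ATPase of recombination repair, at 33.1, 48.4 and 36.4 CPM in the Aurkb-high tumours and 14.7, 11.4, 14.1, 11.5 and 14.4 CPM in the Aurkb-low tumours (log2 difference 1.58, SE 0.17, edgeR adjusted p = 0.184). Ntn1, the secreted guidance cue netrin-1, was at 137, 140.3 and 224 CPM against 60.5, 41.5, 69.6, 46.5 and 68.1 CPM (1.56, SE 0.23). Prr11, linked to progression through the cell cycle, was at 38.3, 52.2 and 37.3 CPM against 23.3, 15.2, 15.2, 15.8 and 11.3 CPM (1.40, SE 0.23). In all 3 the lowest Aurkb-high tumour exceeded the highest Aurkb-low tumour, terminal combination 1 included. Prr11 and the repair gene Fignl1 were tested because the cell cycle lists, which cover S phase, replication and repair, do not hold them. As with the listed genes, the choice of classes by Aurkb makes a difference in genes of this kind likely, so their p-values are a description. Acaca, the acetyl-CoA carboxylase of fatty acid synthesis, was at 104 ± 5.16 against 56.2 ± 8.18 CPM (mean ± SD, n = 3 and 5). The nucleoporin gene Nup35 was at 32.5 ± 1.79 against 18.3 ± 1.96 CPM. The remaining genes were the phosphatase gene Dusp18, the deubiquitinase gene Usp46, Pbdc1, Bhlhb9 and Brip1os, a transcript antisense to Brip1 whose reads cannot be told apart from that gene's, since the strand counted is not stated.

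The 10 genes of lowest p in the other direction had edgeR adjusted p-values up to 0.382, and DESeq2 called these 10 too. Tsc22d3, a gene that glucocorticoids induce, was at 33.4, 49.2 and 40.8 CPM in the Aurkb-high tumours and at 164, 126, 152, 211 and 74.8 CPM in the Aurkb-low tumours (log2 difference -1.82, SE 0.33, edgeR adjusted p = 0.361). Pappa, the protease that cleaves IGF binding proteins, was at 0.930, 0.929 and 2.22 CPM against 7.08, 6.53, 8.86, 7.97 and 6.26 CPM (-2.41, SE 0.39). The Aurkb-low tumours were tightly grouped for Pappa, while the vehicle tumours ran from 0.584 to 33.9 CPM. Tmem100, a membrane protein gene of endothelium, was at 10.7 ± 1.74 against 23.9 ± 2.69 CPM, and Cpeb1, which binds cytoplasmic polyadenylation elements, at 3.77 ± 1.20 against 11.5 ± 1.65 CPM. The arrestin-domain gene Arrdc3 was at 38.3 ± 2.62 against 78.8 ± 15.2 CPM. The remaining genes were Crebl2, Crispld2, Tcp11l2, the selenoprotein gene Selenok and the imprinted transcript Kcnq1ot1, antisense to Kcnq1 and under 2 CPM throughout.

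**Figure D2:**
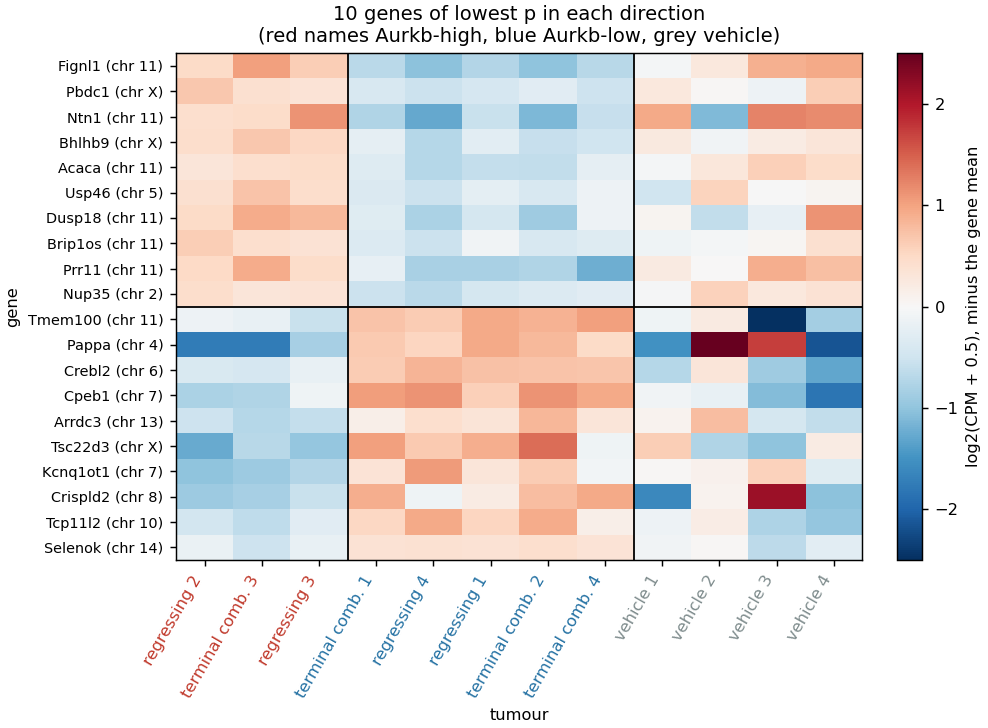
Log2(CPM + 0.5) minus the gene's mean over the 12 tumours, for the 10 genes of lowest p in each direction, with the chromosome in parentheses. The upper block is mostly red in the 3 Aurkb-high columns and mostly blue in the 5 Aurkb-low columns, the lower block the reverse, and the vehicle columns are mixed.

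Set against vehicle, with the same 4 vehicle tumours in both comparisons, the upper 10 genes differed by -0.10 to 0.51 in the Aurkb-high class and by -1.65 to -0.40 in the Aurkb-low class on the log2 scale. The lower 10 differed by -3.22 to 0.24 and by -0.80 to 1.74. Fignl1 was 0.16 above vehicle in the Aurkb-high class and -1.41 from it in the Aurkb-low class. Over all genes outside the cell cycle, neither class had an edgeR call against vehicle. The Aurkb-high class had 517 of 15617 genes (3.31%) at an unadjusted p under 0.05 and 8 DESeq2 calls (0.0512%). The Aurkb-low class had 2520 genes (16.1%) and 983 DESeq2 calls (6.29%), and 338 edgeR calls once terminal combination 1 was left out. In that last fit every Aurkb-low tumour expressed Y-linked genes, against 1 of 4 vehicle tumours, so sex and class were partly mixed. The classes differ in size, 3 tumours and 5, and the numbers of calls were not compared by a test.

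Many of these genes lie on 1 chromosome. Of the 10 upper genes, 6 lie on chromosome 11 (Fignl1, Ntn1, Acaca, Dusp18, Brip1os and Prr11), as do Aurkb itself (chr11:69045647-69051664), Top2a, Trp53 and Nf1. Chromosome 11 held 8.03% of the tested genes and 25.9% of those higher in every Aurkb-high tumour. These were 178 of its 1219 tested genes, or 14.6%. Its median log2 difference was 0.20, and that of all other chromosomes together -0.09. The classes were made from a gene of this chromosome, which makes higher levels of its other genes likely, so these values are a description. Without chromosome 11 the non-overlapping higher genes numbered 509 of 13961 (3.65%). Pbdc1 and Bhlhb9 lie on the X chromosome, whose median was 0.09, with 32 of 532 genes (6.02%) higher in every Aurkb-high tumour. Their log2 differences were 0.93 and 1.02, and 0.91 and 0.80 with expression of Y-linked genes as a covariate. Among cell cycle genes, the 38 on chromosome 11 had a median log2 difference of 1.07 and the 410 elsewhere 0.65, with 24 and 161 not overlapping.

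The level of the whole chromosome was read in each tumour as the median deviation of its genes from their mean over the 12 tumours, on the log2 scale and over 953 genes with a mean of at least 5 CPM. It was 0.12, 0.27 and 0.19 in regressing 2, terminal combination 3 and regressing 3. In the Aurkb-low tumours it was -0.03 in terminal combination 1, -0.26 in regressing 4, 0.12 in regressing 1, -0.19 in terminal combination 2 and -0.15 in terminal combination 4, so that regressing 1 sat with the Aurkb-high tumours. Vehicle tumours 1 to 4 stood at -0.19, -0.21, 0.13 and 0.19, low in the 2 with the lower Aurkb and high in the 2 with the higher Aurkb. The titles of vehicle 1 and 2 end in FFT, an unexplained mark, and those of vehicle 3 and 4 do not. Aurkb level and this mark therefore cannot be told apart among the vehicle tumours. Terminal combination 1 was at -0.11 over 679 genes up to 100 Mb and at 0.28 over 274 genes beyond it. DNA copy number was not measured here, and its part in the class difference was not tested.

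Chromosomes 3, 10 and 14 went the other way, with medians of -0.21, -0.26 and -0.21. They held 127 of the 545 genes lower in every Aurkb-high tumour (23.3%), and 13.4% of the tested genes. Terminal combination 1 stood 0.57 above the gene mean on chromosome 3 and 0.57 on chromosome 10, 0.53 on chromosome 15 and 0.25 on chromosome 14, and no other Aurkb-low tumour exceeded 0.00 on chromosome 3 or -0.01 on chromosome 10. On chromosome 14 regressing 4 was at 0.21. Cdk1 and Cdk2 are on chromosome 10 and Ccna2 on chromosome 3, the chromosomes on which terminal combination 1 was high.

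**Figure D3:**
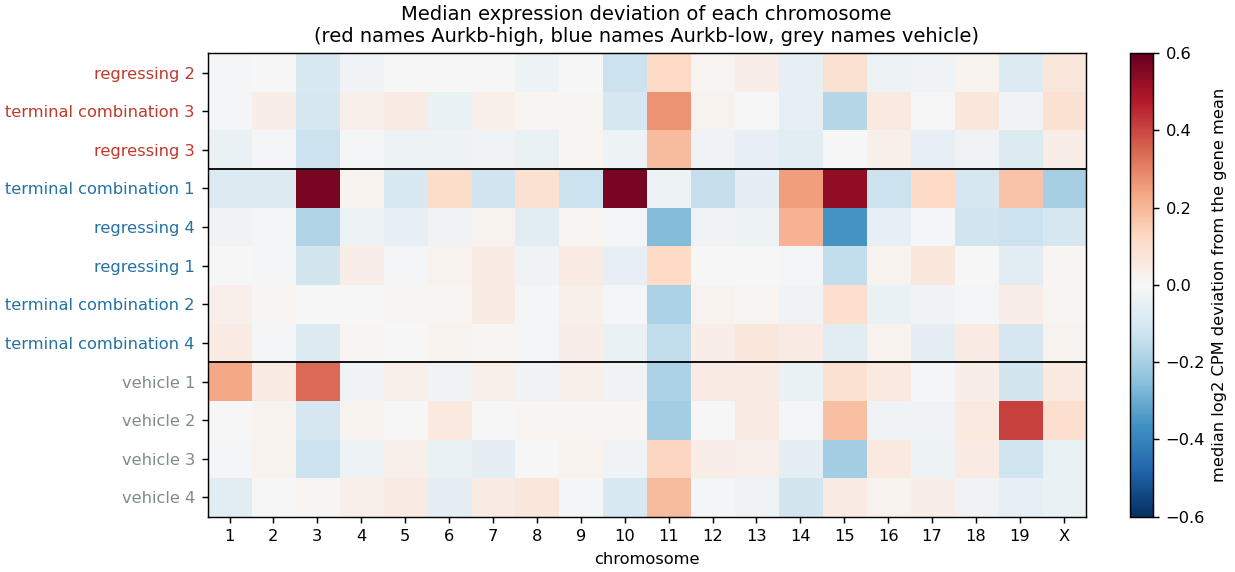
Median log2 CPM deviation from the gene mean for chromosomes 1 to 19 and X (columns; mitochondrial and Y-linked genes are not drawn) in each tumour (rows, names in red for Aurkb-high, blue for Aurkb-low and grey for vehicle). Chromosome 11 is red in the 3 Aurkb-high rows, in regressing 1 and in vehicle 3 and 4, and terminal combination 1 has the darkest cells, on chromosomes 3, 10 and 15.

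Genes of ribosome making stood higher in the Aurkb-high class. Of 42 tested genes of ribosome biogenesis and MYC targets, 40 were higher, with a median of 0.38, against -0.07 for all genes. For 16 the classes did not overlap, all higher, against a background of 4.53%, and 5 were DESeq2 calls. Polr1b, a subunit of RNA polymerase I, was at 41.9, 57.3 and 39.5 CPM in the Aurkb-high tumours and at 29.5, 29.9, 28.7, 26.4 and 32.5 CPM in the Aurkb-low tumours (log2 difference 0.66, SE 0.16, edgeR adjusted p = 0.382). The rRNA processing gene Rrp9 was at 43.3 ± 6.07 against 28.1 ± 2.95 CPM, the pseudouridine synthase gene Dkc1 at 59.4 ± 6.60 against 39.8 ± 5.35 CPM and the translation factor gene Eif4a1 at 1063 ± 107 against 633 ± 123 CPM. The list's mean log2 CPM was 6.90 to 7.14 in the Aurkb-high, 6.40 to 6.85 in the Aurkb-low and 6.80 to 7.35 in the vehicle tumours. Without terminal combination 1 the classes did not overlap for 30 members higher and 1 lower, beside 7.69% and 8.62% of all genes, and without chromosome 11 for 13 of 37, beside 3.65%. For the proteins of the ribosome itself 10 of 46 were higher, with a median of -0.14. The classes did not overlap for 2, both lower (background 3.59%), and for 5, all lower, without terminal combination 1 (background 8.62%).

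Splicing genes resembled them, with 32 of 33 higher, a median of 0.25 and 10 without overlap, all higher (background 4.53%). Hnrnpab was at 538, 523 and 486 CPM against 289.8, 240.2, 349, 287 and 357 CPM (log2 difference 0.77, SE 0.16, edgeR adjusted p = 0.382, DESeq2 adjusted p = 0.00241). Srsf1 was at 183 ± 19.7 against 124 ± 18.2 CPM, Srsf2 at 179 ± 21.0 against 119.6 ± 20.1 CPM, and Srsf7 at 91.4 ± 6.07 against 59.5 ± 15.3 CPM. Hnrnpab, Srsf1 and Srsf2 are on chromosome 11, and 7 of 30 members elsewhere did not overlap (background 3.65%).

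Genes of resting cells stood lower in the Aurkb-high class, all 17 of 17 tested, with a median of -0.73 and 8 without overlap (background 3.59%). Klf9, a transcription factor gene, was at 17.3, 14.8 and 24.6 CPM in the Aurkb-high tumours and at 48.7, 37.2, 46.1, 106 and 55.9 CPM in the Aurkb-low tumours (log2 difference -1.63, SE 0.38, edgeR adjusted p = 0.382). The MYC antagonist gene Mxi1 was at 31.8 ± 0.974 against 57.2 ± 12.3 CPM, Txnip, which restrains glucose uptake, at 182 ± 51.9 against 335 ± 49.1 CPM, and the antiproliferative gene Btg1 at 95.2 ± 20.6 against 193 ± 62.9 CPM. Klf9, Mxi1 and Txnip were DESeq2 calls. The choice of classes by Aurkb makes a difference in resting cell genes likely, as with the cell cycle genes. Their p-values are therefore a description. The list's mean log2 CPM was 5.21, 5.0 and 5.24 in the Aurkb-high tumours and 6.04, 5.77, 5.90, 5.98 and 5.71 in the Aurkb-low tumours, with terminal combination 1 the highest of all. Vehicle tumours 1 to 4 lay at 5.56, 5.58, 5.11 and 5.28. Without terminal combination 1 the median was -0.55 and 9 members did not overlap, where the background had gone from 3.59% to 8.62%. Of the 51 lists outside the cell cycle, the mean of 4 did not overlap between classes. Ribosome biogenesis and splicing were higher, resting cell genes and RAS pathway components lower. That is 2 of 51 each way, beside 4.53% (higher) and 3.59% (lower) of single genes. The gap was narrow for splicing (6.45 to 6.70 against 6.21 to 6.42) and for RAS pathway components (5.52 to 5.61 against 5.63 to 5.77). Of the 21 RAS pathway members 10 were higher, with a median of -0.02.

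**Figure D4:**
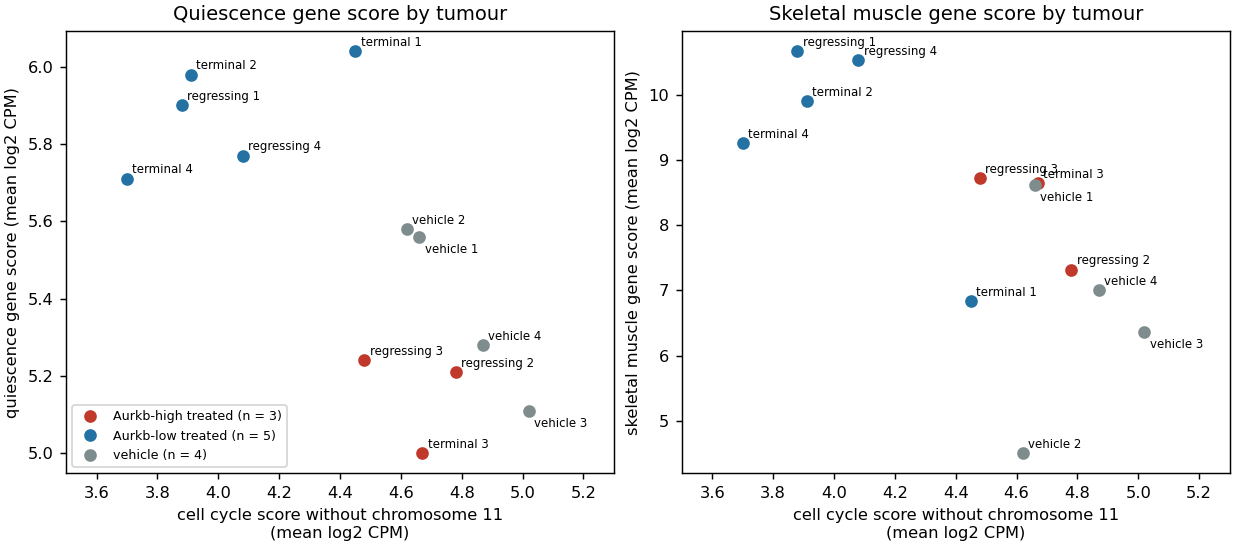
Mean log2 CPM of the 17 resting cell (quiescence) genes, left, and of 24 skeletal muscle genes, right, against the mean log2 CPM of 413 cell cycle genes outside chromosome 11, with 1 point per tumour. On the left the 5 blue Aurkb-low points lie at 5.71 and above and the 3 red Aurkb-high points at 5.24 and below, and on the right terminal combination 1 lies at 6.83, below the red points.

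The targets of palbociclib and their partners were mixed. Of 17 genes on the list of D cyclins, CDK4/6, INK4 and RB family genes, 8 were higher and 9 lower, with a median of -0.05. The classes did not overlap for 1 higher (background 4.53%) and 3 lower (background 3.59%). The 1 higher was Mtap, which neighbours Cdkn2a on chromosome 4, salvages methylthioadenosine and is itself no gene of those families. Mtap was at 368, 229.6 and 225 CPM against 148, 105, 146, 149.6 and 166 CPM (log2 difference 0.95, SE 0.21, edgeR adjusted p = 0.382, DESeq2 adjusted p = 0.0148). The non-overlapping lower genes were Cdkn1b, which encodes the CDK inhibitor p27 (21.8 ± 3.80 against 31.5 ± 6.25 CPM), Rbl2, which encodes p130 (42.0 ± 4.17 against 54.6 ± 3.84 CPM), and the cyclin gene Ccnd3 (135 ± 15.4 against 189 ± 31.1 CPM). Ccnd1 overlapped, at 1034, 1538 and 1393 CPM against 603, 596, 944, 1312 and 1011 CPM. Cdkn1b and Rbl2 are also on the resting cell list.

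The readouts of the pathway that mirdametinib blocks were split, with 20 of 35 MEK-ERK output genes higher and 15 lower, a median of 0.28, and 0.14 without terminal combination 1. The classes did not overlap for 2 members, both higher, near the background of 4.53%, and for 4 without terminal combination 1. The 2 were the ETS factor gene Etv4, at 128, 124 and 71.9 CPM against 55.2, 7.45, 46.8, 63.8 and 31.0 CPM (log2 difference 1.41, SE 0.55, edgeR adjusted p = 0.456), and the RAS-ERK inhibitor gene Spred2, at 89.6 ± 11.7 against 64.3 ± 14.6 CPM. Both are on chromosome 11, and of the 32 members elsewhere, with a median of 0.11, none was without overlap. The ERK phosphatase gene Dusp6 overlapped, at 111, 332 and 129 CPM against 130.2, 70.6, 103, 183 and 67.1 CPM. Spry1, a feedback inhibitor, lay in the other direction at 81.1 ± 41.2 against 152 ± 37.9 CPM. Plaur, the urokinase receptor gene, was higher at 60.2 ± 19.7 against 31.9 ± 13.9 CPM. The classes overlapped for both.

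The biosynthetic lists held a few enzymes for which the classes did not overlap. Of 26 genes of cholesterol and fatty acid synthesis 18 were higher (median 0.27), and Acaca alone did not overlap, near the background of 4.53%. Without terminal combination 1 there were 3, beside 7.69%, and without chromosome 11 there was none. Fasn, the fatty acid synthase gene, was at 289.8, 455 and 326 CPM against 329.7 CPM in terminal combination 1 and 131 to 185 CPM in the other 4, and Acly followed at 312, 385 and 354 CPM against 314 and 187 to 213 CPM. Srebf1, the regulator of these genes, was at 159 ± 28.1 against 122 ± 21.4 CPM. All 4 are on chromosome 11. Of 28 mTORC1 and amino acid supply genes 15 were higher, 3 without overlap (background 4.53%): the serine synthesis genes Phgdh (339 ± 152 against 132 ± 66.3 CPM) and Psat1 (156 ± 9.37 against 90.5 ± 30.7 CPM), and the S6 kinase gene Rps6kb1 (52.1 ± 1.73 against 35.1 ± 6.94 CPM). Without terminal combination 1 that list had 9 higher and 1 lower without overlap, and without chromosome 11 it had 2 of 25 and its median went from 0.08 to -0.18. The smallest edgeR adjusted p in those lists other than that of Acaca was 0.408.

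**Figure D5:**
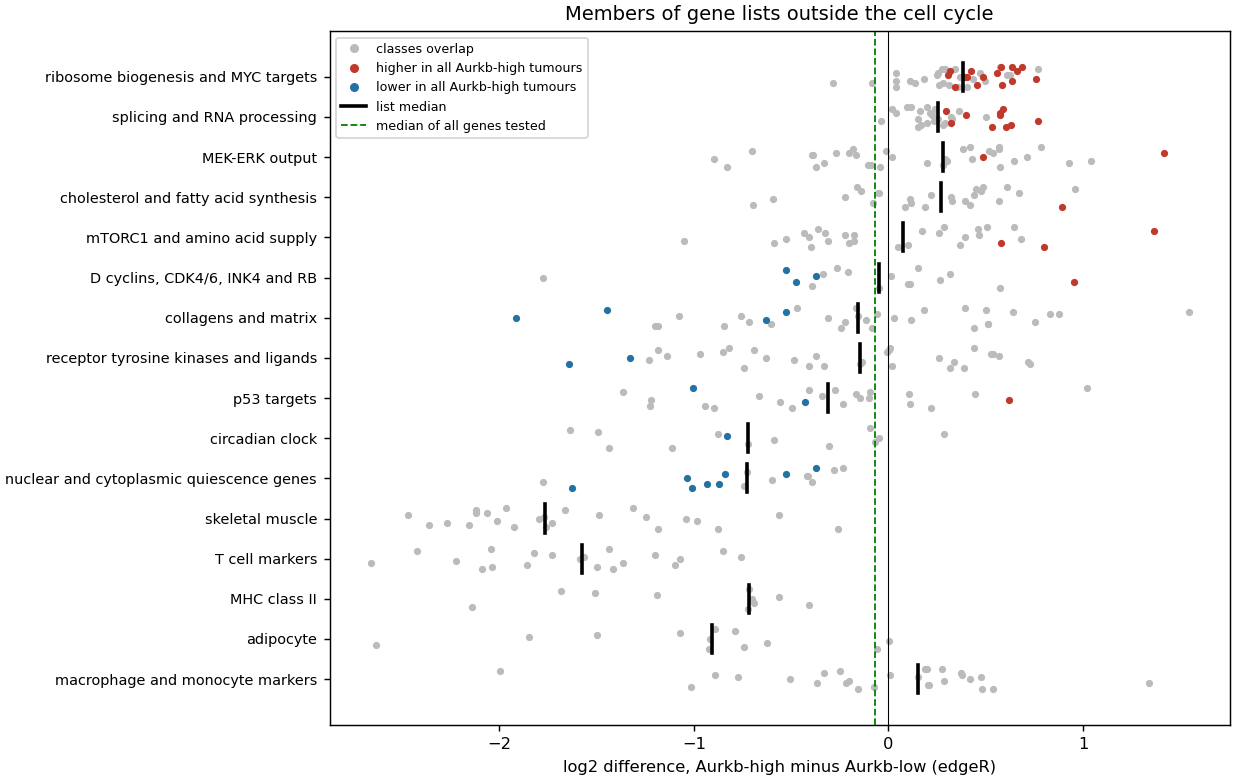
Log2 difference, Aurkb-high minus Aurkb-low, of each tested member of 16 gene lists, with a black bar at the list median and a green dashed line at -0.07, the median of all genes tested. Red and blue points are genes whose classes do not overlap, 16 red in ribosome biogenesis and 8 blue in the quiescence list, while the skeletal muscle and T cell lists lie low with every point grey.

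Stromal and growth factor genes stood lower in places. Of 33 collagen and matrix genes 20 were lower, with a median of -0.16 against -0.07 for all genes. The classes did not overlap for 4, all lower (background 3.59%). Eln, the elastin gene, was at 82.5, 72.6 and 82.7 CPM in the Aurkb-high tumours and at 310.1, 508, 322, 115 and 246 CPM in the Aurkb-low tumours (log2 difference -1.92, SE 0.43, edgeR adjusted p = 0.382, DESeq2 adjusted p = 0.00188). Dcn, the fibroblast proteoglycan decorin, was at 503 ± 181 against 1373 ± 721 CPM. Lox, at 397 ± 102 against 225 ± 48.9 CPM, and the matrix glycoprotein gene Tnc, at 565 ± 291 against 195 ± 117 CPM, lay the other way, both with overlap. Among 31 receptor tyrosine kinases and ligands, Pdgfra, at 254, 77.0 and 173 CPM against 470.2, 570.1, 360.2, 979 and 257 CPM, and the fibroblast growth factor gene Fgf7, at 8.45 ± 3.26 against 21.3 ± 10.3 CPM, were lower without overlap (2 of 31, background 3.59%). Igf1 (54.5 ± 9.67 against 96.8 ± 27.4 CPM) and Erbb2 (37.8 ± 12.5 against 23.1 ± 6.32 CPM) overlapped.

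Of 24 p53 list genes 18 were lower, with a median of -0.31. The classes did not overlap for 1 higher (background 4.53%) and 2 lower (background 3.59%). Without terminal combination 1 they did not overlap for 2 and 4, beside 7.69% and 8.62%. Btg2, an antiproliferative p53 target, was at 37.9, 34.2 and 12.1 CPM against 64.6, 57.3, 42.5, 58.5 and 59.9 CPM, and Fas, the death receptor gene, overlapped at 3.27 ± 1.43 against 7.70 ± 2.87 CPM. Trp53 itself, on chromosome 11, was the member higher without overlap, at 253 ± 24.3 against 165 ± 47.5 CPM. Of 13 circadian clock genes 12 were lower, with a median of -0.72. The 1 without overlap (background 3.59%) was Cry2, lower at 14.6 ± 3.25 against 26.0 ± 9.42 CPM. Per1 overlapped, at 15.3, 25.4 and 23.2 CPM against 149, 38.0, 30.3, 66.0 and 19.3 CPM, its highest value being in terminal combination 1.

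Transcripts of other tissues varied widely inside the Aurkb-low class. All 24 skeletal muscle genes were lower in the Aurkb-high class, with a median of -1.77, and for none were the classes apart. The muscle myosin gene Myh4 was at 841, 844 and 1199.7 CPM against 577, 5704, 10193, 7337 and 2911 CPM, and the creatine kinase gene Ckm at 412, 729.6 and 1045 CPM against 330.4, 3354, 6824, 4544 and 1269 CPM. Both genes were low in terminal combination 1 and high in the other Aurkb-low tumours, and without it 16 of 24 muscle genes did not overlap, beside 8.62% of all genes. In that comparison sex and class cannot be told apart, since Y-linked genes were expressed in all Aurkb-low and no Aurkb-high tumours. The differences of Myh4 and Ckm changed sign with Y-linked expression as a covariate. The mean log2 CPM of the muscle list was 7.32 to 8.72 in the Aurkb-high class, 6.83 to 10.67 in the Aurkb-low class and 4.5 to 8.62 in vehicle (exact two-sided permutation test between treated classes, 56 arrangements, p = 0.25, adjusted 0.679 over 6 library measures, smallest possible p 0.0179). Mitochondrial reads made up 0.785% to 1.01% of the Aurkb-high libraries, 0.838% of terminal combination 1 and 1.23% to 2.14% of the other Aurkb-low libraries (exact permutation p = 0.107, adjusted 0.643). The part that muscle tissue in the samples played in the differences above was not tested.

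All 20 T cell markers were lower in the Aurkb-high class, with a median of -1.58 and none without overlap. Lck, the T cell kinase gene, was at 10.4, 3.42 and 1.64 CPM against 4.0, 83.8, 5.61, 0.773 and 11.1 CPM, so that regressing 4 alone stood high, and Cd4 was at 30.4, 10.7 and 14.5 CPM against 18.7, 73.4, 18.9, 18.4 and 38.0 CPM. The differences of Lck and Cd4 also changed sign with Y-linked expression as a covariate. All 10 MHC class II genes were lower, with a median of -0.72, and 11 of 12 adipocyte genes, with a median of -0.91, again none without overlap. Macrophage and monocyte markers were even, 15 of 27 higher with a median of 0.15. Nerve axon genes were higher in 5 of 8, among them the neurofilament gene Nefl (83.7, 445 and 187 CPM against 118, 37.6, 108, 112 and 135 CPM) and Map2 (12.2 ± 7.41 against 2.73 ± 3.18 CPM), both overlapping.

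The sex of the mice moved with the classes in part. The sum of 4 Y-linked genes was 0 counts in all 3 Aurkb-high tumours and in terminal combination 1, and 104 to 159 CPM in the other 4 Aurkb-low tumours, with 1 of 4 vehicle tumours also expressing them (Fisher's exact test on the treated classes, two-sided, p = 0.143). Xist, which silences an X chromosome in females, was at 16.0 to 36.3 CPM in the Aurkb-high class and 94.3 CPM in terminal combination 1, and at no more than 0.0768 CPM in the other Aurkb-low tumours. When terminal combination 1 was left out, 5 genes passed in the edgeR test, namely Xist (higher, adjusted p = 0.00536) and Ddx3y, Eif2s3y, Uty and Kdm5d (lower, adjusted p = 0.004 to 0.0317), all of them sex-linked and named after their values were seen. No other gene outside the cell cycle passed in that fit. Without terminal combination 1 sex and class cannot be told apart.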

How the data were processed

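RNA sequencing libraries of 12 tumours were used, per the labels' protocols made from RNeasy RNA with a stranded TruSeq mRNA kit. The authors deposited, for each library, unnormalized read counts of 54532 Ensembl genes. Per the submitters' processing notes, HISAT2 2.2.1, Salmon and DESeq2 1.24.0 were used with mm10 and GRCm38.p6; which of them counted the reads, on which strand and with which annotation is not given in the sources used here, so overlapping genes and close copies may share counts. Symbols and positions came from GENCODE M21 (GRCm38), which held 54495 of the identifiers. No 2 libraries were duplicates (lowest chi-square per degree of freedom 56.8). Intervals for a count of 0 are set at 3 counts and cover counting error only.

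Treated tumours were divided by Aurkb CPM on library totals. Low genes were removed with filterByExpr (count of 10 or more, total of 15 or more), and the rest scaled by TMM and tested with the quasi-likelihood test of edgeR 4.0.16 on the 8 treated libraries, or on all 12 in 3 groups for the comparisons with vehicle. Benjamini-Hochberg adjustment ran over genes outside 2 cell cycle lists, which stayed in the fit, at a threshold of 0.05. DESeq2 1.42.0 and limma 3.58.1 voom were alternatives, run in R 4.3.3, and tables and figures used Python 3.11.15. The steps were tested on simulated data. Single library values were compared by exact permutation and labels by Fisher's exact test. CPM are given with TMM scaling and list scores are the mean log2 CPM of tested members.

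The classes, the 51 other gene lists (1011 symbols) and the tests were chosen with earlier results of these data known. Genes named are the 10 of lowest p with a symbol in each direction (predicted genes counted only), up to 4 of lowest p in each list described, and a list of pathway, lineage and cell cycle genes; Trp53 and Mtap, which this rule also names, and the sex-linked genes were added after their values were seen. Not every gene under this rule is reported here. Promoter sequences are from RefSeq on GRCm38.p6. The promoters of Aurkb and Ntn1 are not shown.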

Additional observations from a re-analysis of the deposited data

Results flagged for a closer look

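A tumour is listed here when its gap to the nearest other tumour of its group exceeded Dixon's 95% critical value, which chance alone passes in about 1 of 20 groups. How many groups were examined is not given here, so the values listed are not set against that rate. The groups of 3 Aurkb-high tumours were not examined in this way. Among the Aurkb-low tumours, terminal combination 1 lay far above the other 4 for the cell cycle genes Ccna2 (122 CPM), Cdk1 (156 CPM) and Cdk2 (52.7 CPM), for the lipid synthesis genes Acly (314 CPM) and Fasn (329.7 CPM), and for the median deviation of chromosome 3 (0.57) and of chromosome 10 (0.57). Cdk1 and Cdk2 lie on chromosome 10 and Ccna2 on chromosome 3, while Acly and Fasn lie on chromosome 11 beyond 100 Mb, where this tumour was at 0.28. Regressing 4 lay far above the others for Dcn (2641 CPM) and Lck (83.8 CPM) and far below for Spred2 (38.7 CPM) and Nefl (37.6 CPM). Terminal combination 2 lay far above for Klf9 (106 CPM) and terminal combination 4 for Ngfr (14.5 CPM). Among the vehicle tumours, vehicle 2 lay far above for Btg1 (350.5 CPM), Fas (8.50 CPM), Eln (564 CPM), Pdgfra (1075 CPM), Fgf7 (59.5 CPM) and Igf1 (305 CPM), and vehicle 1 for Myh4 (964 CPM) and S100b (3.13 CPM). The causes of these values were not tested.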

How the results depend on the processing

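By DESeq2 the genes called were 133 higher and 111 lower between the classes, 8 for Aurkb-high against vehicle and 983 for Aurkb-low against vehicle. By edgeR, where all of these counts were 0, Aurkb-low against vehicle had 27 calls with cell cycle genes in the adjustment and 1 with Y-linked expression as a covariate. Leaving out 1 tumour at a time, edgeR gave 0 to 1 higher, 0 to 4 lower, 0 against vehicle for Aurkb-high and 0 to 338 for Aurkb-low, the last without terminal combination 1. It gave 2 without vehicle 2. The unexplained FFT title ending was carried by 0 of 3 Aurkb-high, 2 of 5 Aurkb-low and 2 of 4 vehicle tumours (Fisher's exact test on the treated classes, p = 0.464). Without the libraries whose titles end in FFT, 1 gene was lower (Ddx3y). Non-overlapping genes numbered 1167 higher and 293 lower on library totals, and, where fewer tumours make overlap rarer, 1633 and 1588 without the FFT libraries and 774 to 1227 and 674 to 1308 with 1 tumour left out. The other alternatives for these counts (other normalizations, filters, covariates, limma voom) stayed within 1.5 times, or at 0. For 66 named genes, 1350 of 1385 alternatives kept direction and side of the threshold, 31 passed it under DESeq2, and 4 changed sign, all with Y-linked expression as a covariate: Cd4 (0.01), Lck (0.38), Myh4 (0.76) and Ckm (1.16). The cause was not tested. No paired analysis was possible because the labels give no replicate numbers. Depth limits Kcnq1ot1 and Sox10, which lie near 3 counts or fewer in some libraries.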
